A study of Mus musculus with 12 samples.

Results

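The axon guidance ligands and receptors are 69 of the 21900 protein-coding genes in the RefSeq gene table used here (assembly GRCm38.p6, the mm10 build). They were chosen by symbol alone: 20 semaphorins, 11 plexins and neuropilins, 8 ephrins, 14 Eph receptors, 7 Slits and Robos, and 9 genes of the netrin, Unc5 and Dcc family. The rule uses no measured value. For each gene, open-chromatin peak summits were counted in a window that ran from 50 kb before the gene to 50 kb after it.

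The measurement was ATAC-seq, which tags accessible DNA with a transposase that carries adapters, on dorsal root ganglia of mice, from 6 lumbar ganglia (L4 to L6) per extraction. The 4 groups were Silc1-/- with a crushed sciatic nerve, Silc1-/- with a sham operation, wild type (Silc1+/+) with a crushed nerve, and wild type with a sham operation, with 3 libraries each. Silc1 is a long noncoding RNA, and the allele, the animals' ages and the time between surgery and dissection are not given in the labels used here. Purchased male mice were of the C57black6 Ola HSD stock and the other strains were bred in house, per the labels. The files used hold 1 list of summits per group, so a value has no spread over animals and no test between groups was possible. The lists held 35815 summits in Silc1-/- injured, 48332 in Silc1-/- sham, 43841 in wild-type injured and 27279 in wild-type sham ganglia. Read depth is unknown. Summits here come from a whole tissue, in which fewer cells of a type and less open chromatin per cell cannot be told apart. The Silc1 locus itself was not examined here.

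Axon guidance molecules steer growing axons by attraction and repulsion. Secreted or membrane-bound ligands (semaphorins, ephrins, Slits, netrins) are read by receptors on the growth cone (plexins with neuropilins, Eph receptors, Robos, and Dcc with the Unc5 proteins), which act on the actin and microtubule cytoskeleton. In the dorsal root ganglion these molecules are known for patterning sensory axons during development, and several are made again, or still made, by adult neurons, satellite glia and Schwann cells. After a sciatic nerve crush, sensory neurons in the lumbar ganglia regrow their peripheral axon.

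Every guidance gene had a summit in its window in at least 1 list. At least 1 summit was found for 68 members in the Silc1-/- injured list, 69 in the Silc1-/- sham list, 69 in the wild-type injured list and 65 in the wild-type sham list. Among all protein-coding genes, 14.0% had none in the Silc1-/- injured list, 12.4% in Silc1-/- sham, 12.7% in wild-type injured and 18.3% in wild-type sham. The windows together held 285 distinct summits in Silc1-/- injured, 421 in Silc1-/- sham, 391 in wild-type injured and 237 in wild-type sham ganglia. As a share of its list this was 0.796% in Silc1-/- injured (Wilson 95% interval 0.709 to 0.893), 0.871% in Silc1-/- sham (0.792 to 0.958), 0.892% in wild-type injured (0.808 to 0.984) and 0.869% in wild-type sham (0.765 to 0.986). The 4 intervals overlap, and all intervals given here cover counting error only.

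Per length, the windows of all 69 guidance genes held somewhat fewer summits than those of all protein-coding genes. This held for the 32 members longer than 100 kb, while the 37 members of up to 100 kb held more. The density was 14.4 summits per Mb against 17.3 in Silc1-/- injured, 21.3 against 23.8 in Silc1-/- sham, 19.8 against 22.0 in wild-type injured and 12.0 against 13.6 in wild-type sham ganglia. Guidance genes are long, with a median of 46.3 kb against 17.1 kb over all protein-coding genes. The median member had more summits than the median gene, 4 against 3 in Silc1-/- injured, 5 against 4 in Silc1-/- sham, 6 against 4 in wild-type injured and 3 against 2 in wild-type sham ganglia. The range over members was 0 to 11 in Silc1-/- injured, 1 to 25 in Silc1-/- sham, 1 to 15 in wild-type injured and 0 to 12 in wild-type sham ganglia.

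**Figure D1:**
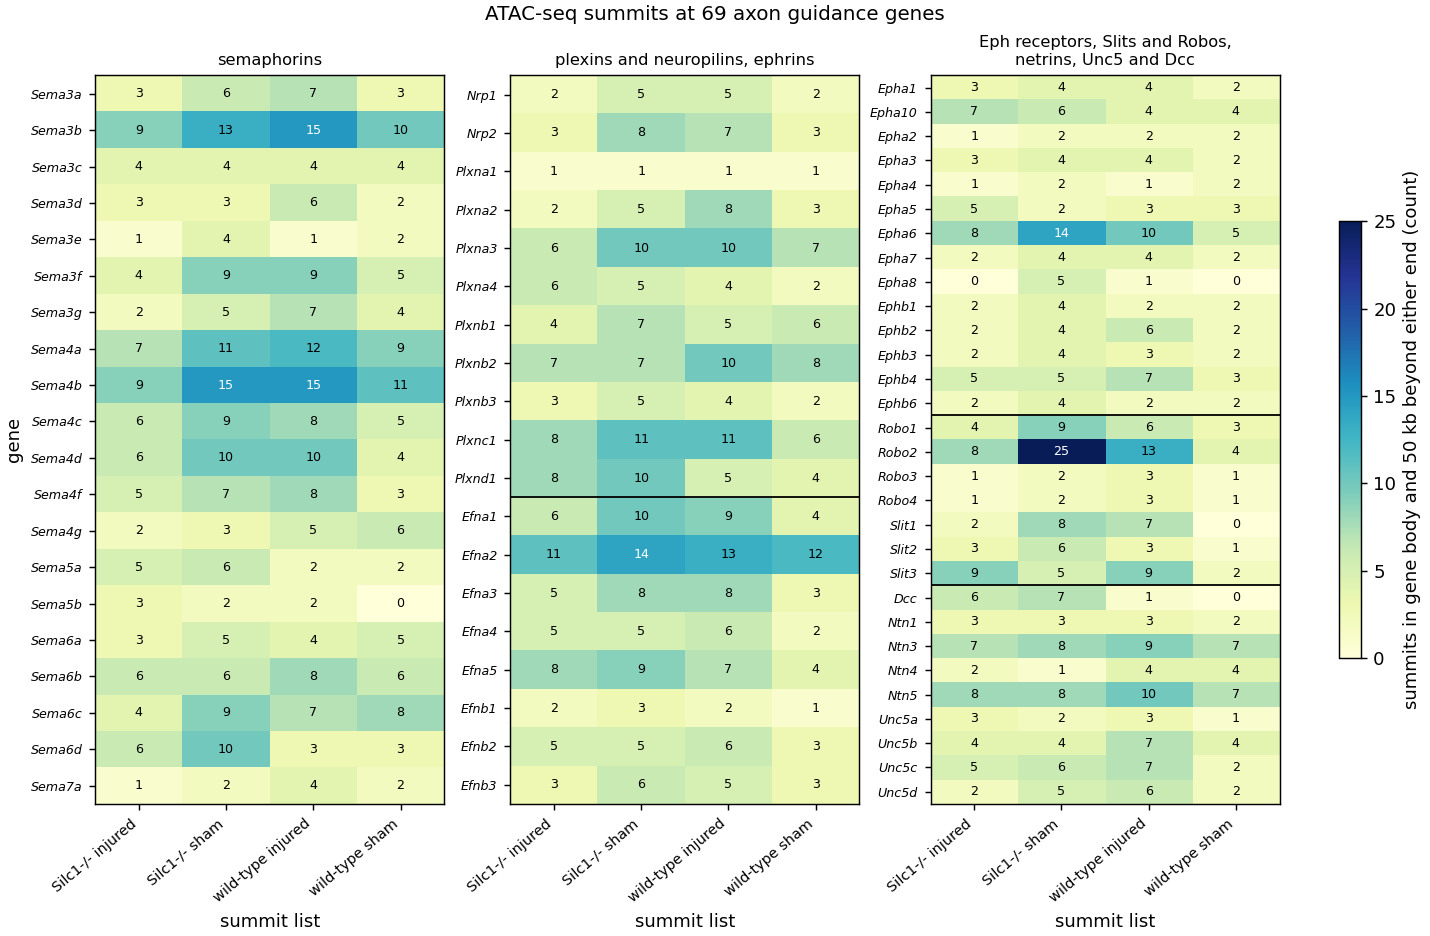
Summits in the window of each of the 69 guidance genes (rows, grouped by family) in the 4 lists (columns), as deposited counts within the gene and 50 kb on either side. Robo2 reaches 25 in the Silc1-/- sham list, while Slit1, Dcc, Epha8 and Sema5b have 0 in the wild-type sham list.

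Of the guidance genes, 25 had a summit within 1 kb of a gene end in the Silc1-/- injured list (background over all protein-coding genes 45.6%), 31 in Silc1-/- sham (50.9%), 31 in wild-type injured (51.9%) and 29 in wild-type sham (46.2%). As shares of the 69 members these are 36.2% in Silc1-/- injured, 44.9% in Silc1-/- sham, 44.9% in wild-type injured and 42.0% in wild-type sham, below the background in each list. The gene table gives no strand, so both ends were used and a start was not told from an end. A summit at an end in all 4 lists was found for 18 members (background 40.8%), in some lists for 25 and in no list for 26. Every family except the Slits and Robos had members with an end site in all 4 lists: 6 semaphorins, 3 plexins or neuropilins, 2 ephrins, 5 Eph receptors and 2 of the netrin group. Of the 7 Slits and Robos, 3 had an end site in some lists and 4 in none.

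**Figure D2:**
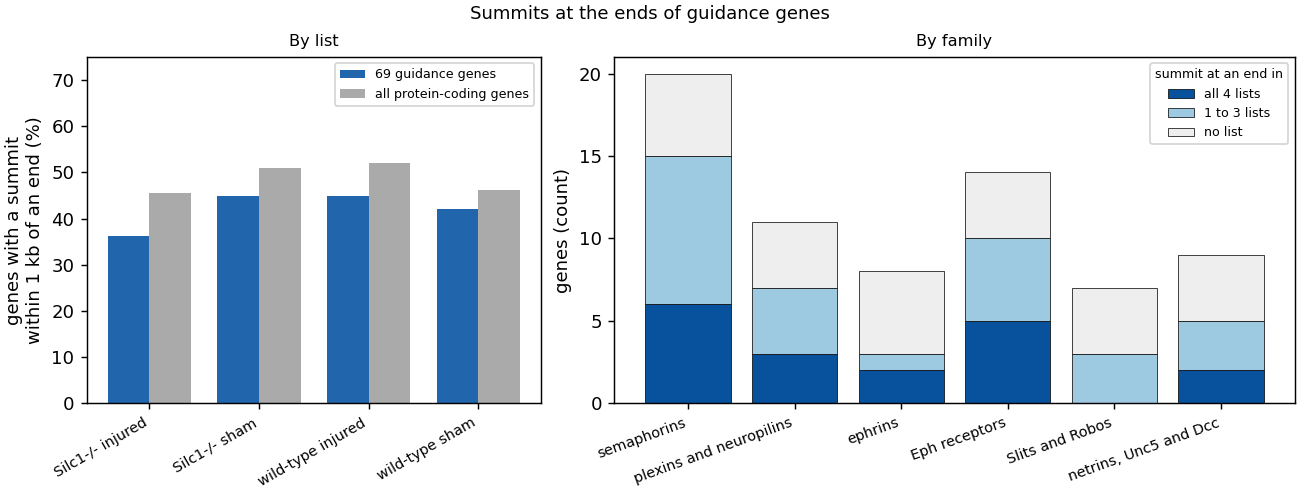
Gene-end summits of the guidance genes: the share of members and of all protein-coding genes with a summit within 1 kb of either end in each list, and the number of genes per family with such a summit in all, some or no lists. Members lie below all genes in each of the 4 lists, and the Slits and Robos have none with an end site in all 4.

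RefSeq start-site windows (GRCm38.p6, 250 bases before to 50 after a start) were at hand for 59 of the 69 members, with 75 windows between them. A summit lay inside such a window for 17 of these 59 genes in Silc1-/- injured (28.8%, background 37.3%), 23 in Silc1-/- sham (39.0%, background 41.9%), 28 in wild-type injured (47.5%, background 43.5%) and 23 in wild-type sham ganglia (39.0%, background 38.4%). In at least 1 list it did so for 38 genes (64.4%, background 50.4%), and in all 4 lists for 11 genes, where the background was 29.3%. Many guidance genes with a summit inside a start window in some list thus lacked one in another. The Silc1-/- injured list had the fewest genes with one. A window without a summit is not shown to be closed, since a summit just outside it is not counted. Epha5, Sema5a, Unc5b and Unc5c, for example, had a summit within 1 kb of a gene end in all 4 lists. Inside a start window they had one in some lists only.

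Of the named genes, 5 are shown as examples. A summit lay inside a listed start window in all 4 lists for Efna1, Epha7 and Plxna2. For Epha4 it did so in both sham lists alone, and for Slit3 in both wild-type lists alone. Other patterns among the named genes are not shown. They include both Silc1-/- lists alone (Plxna3), Silc1-/- sham alone (Robo2) and all lists but Silc1-/- injured (a Sema4b start). The Efna1 start shown lies inside the gene. Its other listed start, at the gene end (chr3:89280902-89281201), had no summit in any list, so Efna1 is among the members without an end site. Efna1 encodes a membrane-anchored ephrin ligand, Epha7 and Epha4 receptor tyrosine kinases for ephrins, Plxna2 a semaphorin receptor and Slit3 a secreted repellent. Sequences are RefSeq's, 5′ to 3′ on the gene's strand. Capitals mark GC boxes (GGGCGG, the site of SP and KLF factors) and CCAAT boxes (CCAAT), on either strand.
Efna1, chr3:89279596-89279895, minus strand: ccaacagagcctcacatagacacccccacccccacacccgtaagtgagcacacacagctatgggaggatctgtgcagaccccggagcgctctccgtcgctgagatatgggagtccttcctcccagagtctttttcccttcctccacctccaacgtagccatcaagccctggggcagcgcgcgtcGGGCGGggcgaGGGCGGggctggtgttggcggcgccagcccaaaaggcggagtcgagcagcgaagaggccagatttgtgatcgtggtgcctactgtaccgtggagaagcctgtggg
Epha7, chr4:28812881-28813180, plus strand: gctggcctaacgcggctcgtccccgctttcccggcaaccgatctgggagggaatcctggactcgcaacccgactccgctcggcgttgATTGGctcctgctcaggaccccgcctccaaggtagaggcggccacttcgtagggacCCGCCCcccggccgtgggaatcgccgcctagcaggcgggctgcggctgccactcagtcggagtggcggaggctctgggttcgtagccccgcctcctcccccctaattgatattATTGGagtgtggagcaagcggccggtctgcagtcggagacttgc
Plxna2, chr1:194619579-194619878, plus strand: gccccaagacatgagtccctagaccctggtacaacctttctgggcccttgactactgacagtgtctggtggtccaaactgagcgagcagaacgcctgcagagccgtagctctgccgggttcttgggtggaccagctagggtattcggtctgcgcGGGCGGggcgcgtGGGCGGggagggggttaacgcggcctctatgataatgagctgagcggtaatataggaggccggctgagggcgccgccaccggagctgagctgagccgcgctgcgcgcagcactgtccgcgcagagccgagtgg
Epha4, chr1:77515039-77515338, minus strand: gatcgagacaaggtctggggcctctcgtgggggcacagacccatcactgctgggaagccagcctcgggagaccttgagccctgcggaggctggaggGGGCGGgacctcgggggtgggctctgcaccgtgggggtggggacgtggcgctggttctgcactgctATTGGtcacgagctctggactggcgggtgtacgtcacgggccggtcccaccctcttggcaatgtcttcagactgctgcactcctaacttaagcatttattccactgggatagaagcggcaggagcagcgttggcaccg
Slit3, chr11:35121206-35121505, plus strand: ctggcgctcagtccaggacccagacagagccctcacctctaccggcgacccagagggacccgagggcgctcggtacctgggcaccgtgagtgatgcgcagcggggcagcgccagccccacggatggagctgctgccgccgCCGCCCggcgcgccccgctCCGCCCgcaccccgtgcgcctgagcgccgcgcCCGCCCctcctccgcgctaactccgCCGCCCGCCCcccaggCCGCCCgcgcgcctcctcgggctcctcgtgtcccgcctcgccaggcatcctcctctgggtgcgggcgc

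Positions are counted in bases from the start, negative upstream. In the Efna1 window the summits lay at -25 in Silc1-/- injured, -44 in Silc1-/- sham, -79 in wild-type injured and -55 in wild-type sham ganglia. In the Epha7 window they lay at -70 in Silc1-/- injured, -178 in Silc1-/- sham, -178 in wild-type injured and -69 in wild-type sham ganglia. In the Plxna2 window they lay at 26 in Silc1-/- injured, 39 in Silc1-/- sham, 7 in wild-type injured and 0 in wild-type sham ganglia. These 3 windows were picked for holding a summit of every list.

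Each summit carries the authors' score, which is on a −log10 scale of a p or q value and can be ranked within a list but not compared across lists. At Epha4 the sham summits lay at -57 in Silc1-/- and at -90 in wild type. The scores there were 10.2 in Silc1-/- sham and 5.59 in wild-type sham ganglia, and the nearest summit of another list was 1244 bp away. That neighbour, further upstream, was a site in all 4 lists. At Slit3 the wild-type summits lay at -231 after injury and at -175 after sham, with scores of 1.99 in the injured and 3.54 in the sham list. The nearest summit of a Silc1-/- list was 1704 bp away.

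For 8 motifs (AP-1 TGANTCA, CRE TGACGTCA, GC box GGGCGG, NRF1, ETS CCGGAAG, E-box CACGTG, SOX ACAAAG and CCAAT, all on both strands, none contained in another) the 75 member windows were set beside all 21263 windows of protein-coding genes. A GC box was in 70.7% of member windows against 46.2% of all, and a CCAAT box in 28% against 38.2%. AP-1, the motif of the Jun and Fos factors, was in 4% against 6.99%, ETS in 2.67% against 11.6%, SOX in 13.3% against 16.8%, E-box in 6.67% against 7.84% and CRE in 1.33% against 2.23%. NRF1 was in no member window, against 1.33% of all. The median GC content was 64.3% in member windows and 56.3% in all coding windows. Among the 41 member windows with a summit in some list, 70.7% had a GC box, beside 70.7% of all 75.

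Among the ligands, semaphorins made up the largest family. Their 20 windows held 87 summits in Silc1-/- injured, 135 in Silc1-/- sham, 132 in wild-type injured and 91 in wild-type sham ganglia. Sema4b, a transmembrane semaphorin, had the most, with 9 in Silc1-/- injured, 15 in Silc1-/- sham, 15 in wild-type injured and 11 in wild-type sham ganglia. Sema3b, a secreted class 3 semaphorin that signals through neuropilins, followed with 9 in Silc1-/- injured, 13 in Silc1-/- sham, 15 in wild-type injured and 10 in wild-type sham ganglia, but 11 other coding genes lie in its window. Sema5b had the fewest, with 3 in Silc1-/- injured, 2 in Silc1-/- sham, 2 in wild-type injured and 0 in wild-type sham ganglia.

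The 8 ephrins are short genes (median 9.88 kb) and had the densest windows, with 37.3 summits per Mb in Silc1-/- injured, 48.1 in Silc1-/- sham, 44.2 in wild-type injured and 28.5 in wild-type sham ganglia. Efna2 led with 11 in Silc1-/- injured, 14 in Silc1-/- sham, 13 in wild-type injured and 12 in wild-type sham ganglia, in a window shared with 7 other coding genes. Efna1, Efna3 and Efna4 lie side by side on chromosome 3 (89271730 to 89338028) and share summits. Efna1 had 6 in Silc1-/- injured, 10 in Silc1-/- sham, 9 in wild-type injured and 4 in wild-type sham ganglia.

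Efna5, a ligand that repels axons carrying EphA receptors, held a site named because, among sites in all 4 lists, the lowest of its 4 scores was the highest, a naming rule and no comparison of lists. It lay inside the gene (chromosome 17, position 62737590), 134633 bp from the nearer end, with scores of 114.1 in Silc1-/- injured, 93.1 in Silc1-/- sham, 80.3 in wild-type injured and 78.2 in wild-type sham ganglia. These stood at the 99.4th percentile of the Silc1-/- injured list, the 99.5th of the Silc1-/- sham list, the 99.0th of the wild-type injured list and the 99.1st of the wild-type sham list. The next site by this rule lay inside Plxnc1, the receptor of Sema7a (chromosome 10, position 94872189), with 63.9 in Silc1-/- injured, 56.7 in Silc1-/- sham, 57.4 in wild-type injured and 80.6 in wild-type sham ganglia. At the end of Epha7 (chromosome 4, position 28812953, the start-site window printed above) the scores were 25.5 in Silc1-/- injured, 36.3 in Silc1-/- sham, 37.1 in wild-type injured and 30.1 in wild-type sham ganglia. The other high-scoring sites in all 4 lists, in the windows of Sema3b and Sema4d, lay within 160 bp of the ends of the neighbouring genes Ifrd2 and Cks2.

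Among the receptors, the 11 plexins and neuropilins held 50 summits in Silc1-/- injured, 74 in Silc1-/- sham, 70 in wild-type injured and 44 in wild-type sham ganglia. Plxnc1 had 8 in Silc1-/- injured, 11 in Silc1-/- sham, 11 in wild-type injured and 6 in wild-type sham ganglia. Plxna1, a co-receptor partner of the neuropilins, had 1 in each list. The neuropilin Nrp2 had 3 in Silc1-/- injured, 8 in Silc1-/- sham, 7 in wild-type injured and 3 in wild-type sham ganglia, and Nrp1 had 2 in Silc1-/- injured, 5 in Silc1-/- sham, 5 in wild-type injured and 2 in wild-type sham ganglia.

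The 14 Eph receptors, long genes with a median of 92.1 kb, held 43 summits in Silc1-/- injured, 64 in Silc1-/- sham, 53 in wild-type injured and 33 in wild-type sham ganglia. Epha6 led with 8 in Silc1-/- injured, 14 in Silc1-/- sham, 10 in wild-type injured and 5 in wild-type sham ganglia. Epha10, whose kinase domain is inactive, had 7 in Silc1-/- injured, 6 in Silc1-/- sham, 4 in wild-type injured and 4 in wild-type sham ganglia. Epha4 and Epha8 had the fewest, with 6 each over the 4 lists. Epha4 had 1 in each injured list and 2 in each sham list. Epha8 had 5 in the Silc1-/- sham list, 1 in wild-type injured and 0 in the other lists. All of these lay outside Epha8, the nearest other coding genes being C1qa, C1qb, C1qc (subunits of complement C1q) and Zbtb40.

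The netrin group held 40 summits in Silc1-/- injured, 44 in Silc1-/- sham, 50 in wild-type injured and 29 in wild-type sham ganglia. Ntn5 led with 8 in Silc1-/- injured, 8 in Silc1-/- sham, 10 in wild-type injured and 7 in wild-type sham ganglia, in a window with 11 other coding genes. Ntn3 followed with 7 in Silc1-/- injured, 8 in Silc1-/- sham, 9 in wild-type injured and 7 in wild-type sham ganglia, in a window with 6 others. Unc5a, a repulsive netrin receptor, had the fewest with 3 in Silc1-/- injured, 2 in Silc1-/- sham, 3 in wild-type injured and 1 in wild-type sham ganglia. Dcc, the attractive netrin receptor (chromosome 18, 71253613 to 72351228), had 6 summits in Silc1-/- injured, 7 in Silc1-/- sham, 1 in wild-type injured and 0 in wild-type sham ganglia. All Dcc summits lay inside the gene. With lists cut to equal length Dcc had 2 in Silc1-/- injured, 1 in Silc1-/- sham and 0 in both wild-type lists, and at scores of at least 5 it had 1, in the Silc1-/- sham list. A pair of neighbouring sites, at 72125455 and 72126138, was in both Silc1-/- lists and at least 380658 bp from any wild-type summit, but with scores of 1.91 to 3.09 in Silc1-/- injured and 1.87 to 2.42 in Silc1-/- sham ganglia, near the floor. With 3 summits put in place of the 0, the scaled Dcc count was 1.32-fold higher in Silc1-/- sham ganglia than in wild-type sham ganglia. That ratio leaves out counting error and is not a lower bound. Between the injured lists the ratio of scaled counts was 7.34-fold, with an interval of 0.89 to 338 that includes 1.

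The Slits and Robos varied most across the lists, and are described further because of this, a choice made after their values were seen. Slits are secreted ligands and Robos their receptors on axons, where they mediate repulsion. Robo3 is a divergent member known from commissural axons and Robo4 is known from endothelial cells. The 7 windows held 27 summits in Silc1-/- injured, 55 in Silc1-/- sham, 41 in wild-type injured and 11 in wild-type sham ganglia. The order is that of the list lengths, but the spread was wider: the density was 6.32 per Mb in Silc1-/- injured, 12.9 in Silc1-/- sham, 9.60 in wild-type injured and 2.58 in wild-type sham ganglia.

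Scaled to the mean list length, the summed count of this family was 2.32-fold higher in wild-type injured than in wild-type sham ganglia, which is 1.21 on the log2 scale (95% interval 0.23 to 2.32). In Silc1-/- ganglia it was 0.66-fold after injury relative to sham, -0.59 on the log2 scale (-1.32 to 0.10). Between sham lists it was 2.82-fold higher in Silc1-/- than in wild type, 1.50 on the log2 scale (0.55 to 2.58), and between injured lists 0.81-fold, -0.31 (-1.07 to 0.42). The counts of the wild-type sham list enter both comparisons whose interval lies above 0. All 7 genes had a higher scaled count in wild-type injured than in wild-type sham ganglia, and all 7 in Silc1-/- sham ganglia than in wild-type sham ganglia, while 1 of 7 was higher in Silc1-/- injured than in Silc1-/- sham ganglia. Over all 69 members these counts were 40, 41 and 27, in the same order. The median gene of the family is 326 kb long. With 1 summit added to each scaled count, its median log2 ratios per gene were 0.59, 0.64 and -0.45, in that order. Over the 557 protein-coding genes longer than 300 kb the medians had the same signs, at 0.19, 0.50 and -0.19. The family was picked for its spread, and Robo3 and Robo4 share summits, so the 7 genes are not separate observations.

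**Figure D3:**
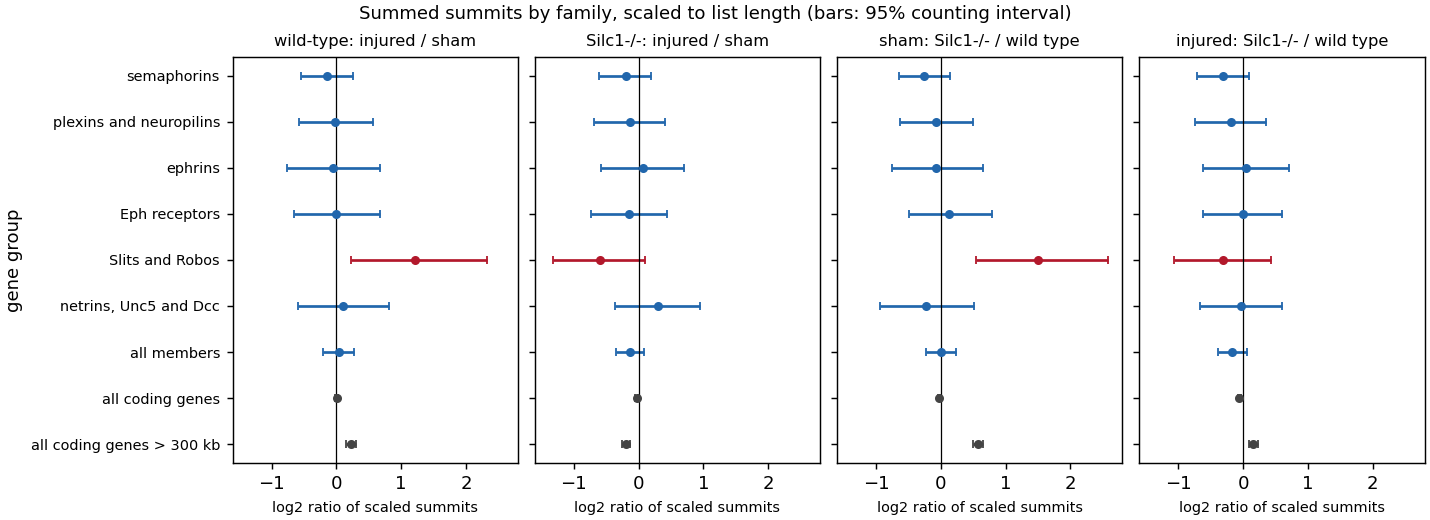
Log2 ratio of summed summits, scaled to list length, for each guidance family, all 69 members, all protein-coding genes and those over 300 kb long in the 4 comparisons. Points are ratios and bars are exact binomial 95% intervals of counting error only. The Slits and Robos stand at 1.21 for wild-type injured over sham and at 1.50 for Silc1-/- sham over wild-type sham, where the other families' bars include 0.

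Robo2 made up a large part of the family's count. It had 8 summits in Silc1-/- injured, 25 in Silc1-/- sham, 13 in wild-type injured and 4 in wild-type sham ganglia. Its scaled count in Silc1-/- injured was 0.43-fold that in Silc1-/- sham ganglia (interval 0.17 to 0.99), and in Silc1-/- sham 3.53-fold that in wild-type sham ganglia (1.22 to 13.9). Robo2 was named for its counts and ratios in these same lists, and the intervals do not allow for that choice. With lists cut to equal length Robo2 had 6 in Silc1-/- injured, 8 in Silc1-/- sham, 3 in wild-type injured and 4 in wild-type sham ganglia. Of its 30 joined sites, 14 were in the Silc1-/- sham list alone. The site with by far the highest scores in the gene (chromosome 16, position 75306682, 140761 bp from the nearer end) was in all 4 lists, with 45.9 in Silc1-/- injured, 49.0 in Silc1-/- sham, 21.1 in wild-type injured and 10.3 in wild-type sham ganglia, which is the 98.3rd percentile of the Silc1-/- injured, the 98.4th of the Silc1-/- sham, the 83.9th of the wild-type injured and the 66.6th of the wild-type sham list. Without Robo2 the family counts were 19 in Silc1-/- injured, 30 in Silc1-/- sham, 28 in wild-type injured and 7 in wild-type sham ganglia. The log2 ratio was then 1.32 (0.09 to 2.75) for wild-type injured over wild-type sham and 1.27 (0.06 to 2.71) for Silc1-/- sham over wild-type sham.

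Slit1 (chromosome 19, 41597824 to 41747275) had 2 summits in Silc1-/- injured, 8 in Silc1-/- sham, 7 in wild-type injured and 0 in wild-type sham ganglia. With 3 summits put in place of the 0 of wild-type sham, its scaled count was 1.45-fold higher in wild-type injured ganglia. In Silc1-/- sham ganglia it was 1.51-fold higher than in wild-type sham ganglia by the same rule. These ratios leave out counting error and are not lower bounds. A site 162 bp outside one end of Slit1 was in all lists but wild-type sham, with scores of 5.36 in Silc1-/- injured, 4.43 in Silc1-/- sham and 10.2 in wild-type injured ganglia. It lies 1501 bp from the end of Lcor. Slit3 had 9 summits in Silc1-/- injured, 5 in Silc1-/- sham, 9 in wild-type injured and 2 in wild-type sham ganglia. Its injured-over-sham ratio was 1.28 on the log2 scale in Silc1-/- (-0.45 to 3.21) and 1.49 in wild type (-0.79 to 4.74), and both intervals include 0. Slit2 had 3 summits in Silc1-/- injured, 6 in Silc1-/- sham, 3 in wild-type injured and 1 in wild-type sham ganglia. Robo1 had 4 in Silc1-/- injured, 9 in Silc1-/- sham, 6 in wild-type injured and 3 in wild-type sham ganglia. Robo3 and Robo4 lie side by side and share summits, with 1 each in Silc1-/- injured, 2 in Silc1-/- sham, 3 in wild-type injured and 1 in wild-type sham ganglia.

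**Figure D4:**
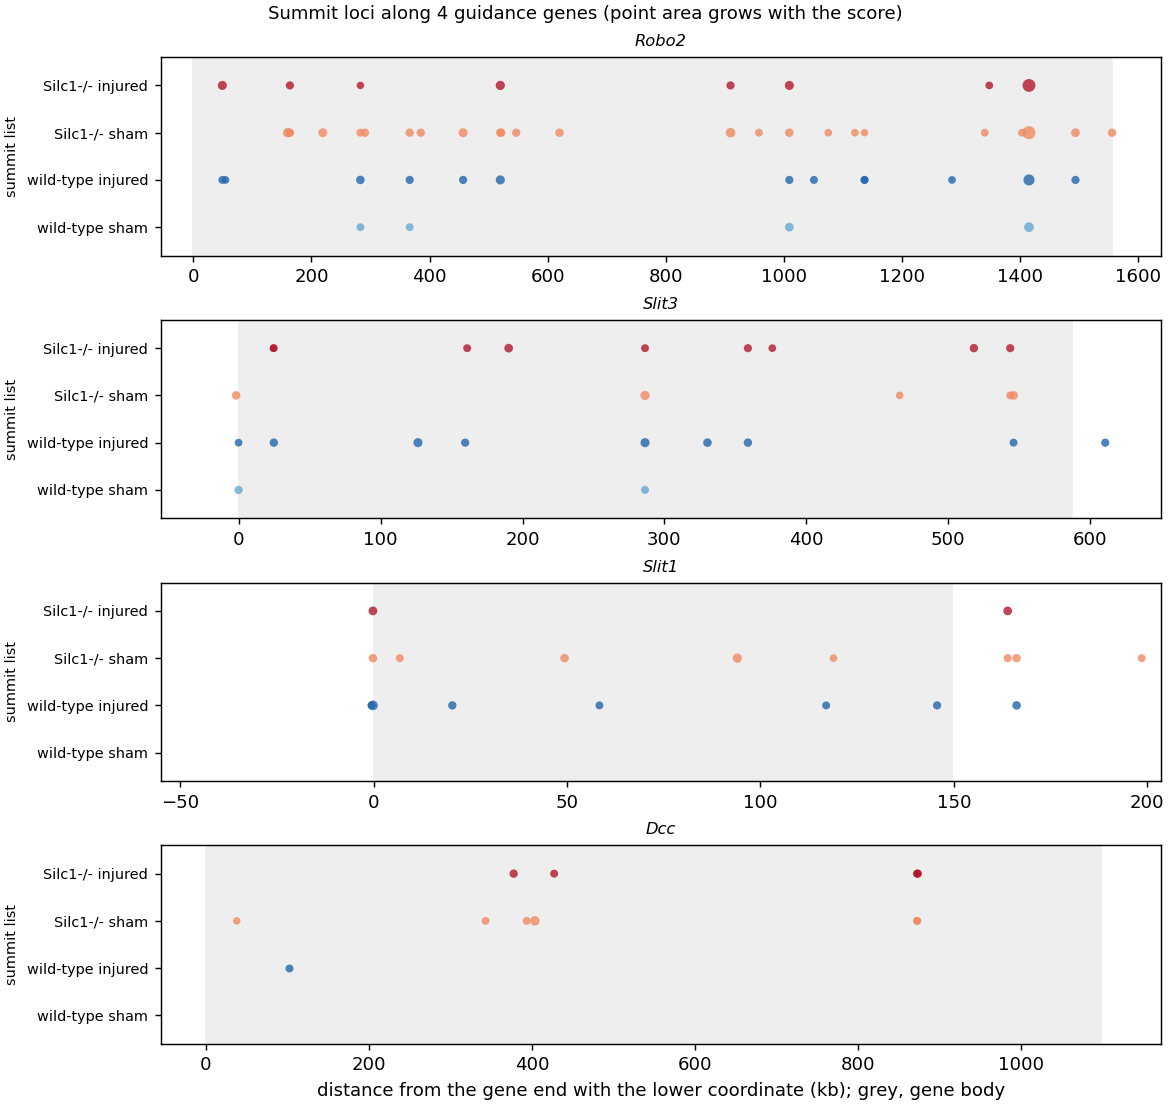
Joined summit sites along Robo2, Slit3, Slit1 and Dcc in the 4 lists, in kb from the gene's lower-coordinate end, with point size by the authors' score and the gene body shaded. Robo2 sites in the Silc1-/- sham list spread over much of the gene, Slit1 has no summit in wild-type sham, and Dcc has 6 and 7 low-scoring summits in the Silc1-/- injured and sham lists.

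Most Slit and Robo summits had low scores, and the family's ratios moved with the score limit. At scores of at least 5 there were 8 summits in Silc1-/- injured, 13 in Silc1-/- sham, 9 in wild-type injured and 4 in wild-type sham ganglia. The log2 ratio was then 0.53 (-1.31 to 2.69) for wild-type injured over sham and 1.20 (-0.49 to 3.27) for Silc1-/- sham over wild-type sham. With every list cut to its 27279 highest-scoring summits the counts were 16 in Silc1-/- injured, 21 in Silc1-/- sham, 15 in wild-type injured and 11 in wild-type sham ganglia. Those ratios were 0.45 (-0.77 to 1.71) for wild-type injured over sham and 0.93 (-0.18 to 2.13) for Silc1-/- sham over wild-type sham, and their intervals include 0.

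Gene length moved with these counts. Among all 557 protein-coding genes longer than 300 kb, the log2 ratio was 0.22 (0.15 to 0.30) for wild-type injured over sham and 0.58 (0.50 to 0.65) for Silc1-/- sham over wild-type sham. The 15 guidance genes of this length had 75 summits in Silc1-/- injured, 114 in Silc1-/- sham, 80 in wild-type injured and 36 in wild-type sham ganglia. Their ratio was 0.47 (-0.12 to 1.08, which includes 0) for wild-type injured over sham and 0.84 (0.29 to 1.42) for Silc1-/- sham over wild-type sham. The 37 members of up to 100 kb gave -0.16 (-0.47 to 0.14) for wild-type injured over sham and -0.32 (-0.62 to -0.01) for Silc1-/- sham over wild-type sham. Over all genes of up to 100 kb these were -0.06 and -0.17. The part of gene length in the Slit and Robo ratios was not tested.

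Over all 69 guidance genes the summed count differed little between lists once scaled. For wild-type injured over wild-type sham the log2 ratio was 0.04 (-0.20 to 0.28), beside 0.00 over all protein-coding windows. For Silc1-/- injured over Silc1-/- sham it was -0.13 (-0.35 to 0.09), beside -0.03. For Silc1-/- sham over wild-type sham it was 0.00 (-0.23 to 0.24), beside -0.02, and for Silc1-/- injured over wild-type injured -0.16 (-0.39 to 0.06), beside -0.06. All 4 intervals include 0.

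Per gene, 3 members (4.35%, background 5.39%) were at least 2-fold higher in wild-type injured than in wild-type sham ganglia after scaling and adding 1 summit, and 2 (2.90%, background 3.53%) were at least 2-fold lower. The higher ones were Slit1, Sema5b and Slit3, and the lower ones Sema3e and Epha4. In Silc1-/- ganglia 2 members (2.90%, background 4.74%), Epha5 and Slit3, were higher after injury than after sham. Another 4 (5.80%, background 4.91%), Epha8, Slit1, Robo2 and Sema3e, were lower. Epha5 had 5 summits in Silc1-/- injured and 2 in Silc1-/- sham ganglia. Sema3e, a ligand of the receptor Plxnd1, had 1 summit in Silc1-/- injured against 4 in Silc1-/- sham, and 1 in the injured against 2 in the sham list of wild type. These shares lie near the background, and each gene rests on few summits.

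Between genotypes, 6 members (8.70%, background 6.81%) were at least 2-fold higher in Silc1-/- sham ganglia than in wild-type sham ganglia, and 3 (4.35%, background 5.6%) were lower. The first group was Slit1, Dcc, Epha8, Robo2, Sema5b and Slit2, and the second Ntn4, Sema4g and Epha5. Of the members longer than 100 kb, 15.6% were higher and 6.25% lower, beside 17.0% and 3.21% of all protein-coding genes of that length. Ntn4, a laminin-related netrin, had 1 summit in Silc1-/- sham and 4 in wild-type sham ganglia, and Sema4g had 3 in Silc1-/- sham and 6 in wild-type sham ganglia. In the injured lists 3 members (4.35%, background 4.84%), Dcc, Sema5a and Sema6d, were higher in Silc1-/-, and 4 (5.80%, background 5.51%), Plxna2, Sema3g, Slit1 and Sema7a, were lower. Sema5a had 5 summits in Silc1-/- injured and 2 in wild-type injured ganglia, and Sema6d had 6 in Silc1-/- injured and 3 in wild-type injured ganglia. Plxna2 had 2 in Silc1-/- injured and 8 in wild-type injured ganglia, and Sema3g had 2 in Silc1-/- injured and 7 in wild-type injured ganglia. 
The median member was 0.17 on the log2 scale for wild-type injured over sham, beside 0.00 over all genes, and -0.21 for Silc1-/- injured over sham, beside 0.00. It was 0.13 for Silc1-/- sham over wild-type sham, beside -0.07, and -0.17 for Silc1-/- injured over wild-type injured, beside 0.00. These comparisons share lists, so their signs are not separate observations.

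Joined within 200 bp, the summits in guidance windows formed 653 sites, of which 139 (21.3%, background 18.3%) were in all 4 lists and 335 in 1 list. The Silc1-/- sham list alone held 144 (22.1%, background 21.1%), the wild-type injured list alone 111 (17.0%, background 16%), the Silc1-/- injured list alone 52 (7.96%, background 10.8%) and the wild-type sham list alone 28 (4.29%, background 4.45%). Both injured lists and no other shared 16 sites (2.45%, background 2.72%), both sham lists 6 (0.919%, background 1.51%), both Silc1-/- lists 25 (3.83%, background 4.38%) and both wild-type lists 19 (2.91%, background 2.38%). These shares lay close to those over all 78381 sites of the series. Of the 89 Slit and Robo sites, 5 (5.62%) were in all 4 lists and 32 (36.0%) in the Silc1-/- sham list alone. Of the 200 semaphorin sites these were 46 (23%) and 33 (16.5%).

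Sites in all 4 lists and sites in 1 list lay in different places. Of the 139 sites in all lists, 18 were within 1 kb of a member's end, 25 further inside a member and 96 outside, and 58 (41.7%) were within 1 kb of the end of another coding gene. Of the 335 sites in 1 list, 26 were at a member's end and 190 (56.7%) further inside a member, while 26 (7.76%) were at another gene's end. Many of the sites found in every list therefore lay at starts or ends of neighbours of guidance genes. No such shares over all sites of the series are given here, so this placement is not shown to be particular to guidance genes.

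The sites shared by both injured lists alone included one inside Sema6d (chromosome 2, position 124522347), with scores of 3.73 in Silc1-/- injured and 3.82 in wild-type injured ganglia and no summit of a sham list within 87426 bp. The sites in both sham lists alone were at Efna5, Epha4, Epha6, Sema3a, Sema3e and Sema6a. Besides the Epha4 start printed above, the highest scores were at a site 21579 bp outside Efna5 (chromosome 17, position 62902896), with 8.73 in Silc1-/- sham and 6.33 in wild-type sham ganglia. In both Silc1-/- lists alone, a site 24082 bp outside Epha6 (chromosome 16, position 59617351) had 5.80 in Silc1-/- injured and 7.16 in Silc1-/- sham ganglia. In both wild-type lists alone, a site 517 bp inside one end of Sema7a (chromosome 9, position 57940113) had 4.46 in wild-type injured and 8.85 in wild-type sham ganglia. The wild-type sham summit lay 1 base from a listed start of Sema7a, while the wild-type injured summit was outside the window of that start. Sema7a is a membrane-anchored semaphorin that promotes axon growth. Among sites in 1 list that lie over 1 kb from every other list's summits, those with the top scores were at Plxnc1 in wild-type injured (15.1), Epha6 in Silc1-/- sham (9.55), Sema4b in wild-type sham (7.73) and Sema5a in Silc1-/- injured ganglia (5.80).

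Counted inside the gene bodies alone, members held 118 summits in Silc1-/- injured, 182 in Silc1-/- sham, 167 in wild-type injured and 77 in wild-type sham ganglia. The log2 ratio was then 0.43 (0.03 to 0.84) for wild-type injured over sham, beside 0.01 over all gene bodies, and 0.42 (0.02 to 0.82) for Silc1-/- sham over wild-type sham, beside 0.03. Bodies of all genes over 100 kb gave 0.26 (0.21 to 0.31) for wild-type injured over sham and 0.46 (0.41 to 0.51) for Silc1-/- sham over wild-type sham. Bodies of members of up to 100 kb gave -0.03 (-0.77 to 0.74) for wild-type injured over sham and -0.32 (-1.08 to 0.47) for Silc1-/- sham over wild-type sham. Without the Slits and Robos the members' bodies gave 0.30 (-0.13 to 0.75) for wild-type injured over sham and 0.20 (-0.24 to 0.64) for Silc1-/- sham over wild-type sham, and both intervals include 0. Gene bodies held 32.5% of the window summits in wild-type sham ganglia, below the 41.4% in Silc1-/- injured, 43.2% in Silc1-/- sham and 42.7% in wild-type injured ganglia. Over all protein-coding genes these shares were 60.5%, 61.0%, 62.7% and 60.7%, in the same order. Over those longer than 100 kb they were 59.8%, 65.1%, 68.3% and 64.4%, also lowest in wild-type sham ganglia.

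Other genes of the pathway gave the following counts. The 26 other guidance cues and adhesion receptors (such as Neo1, Nrcam and Dscam) held 101 summits in Silc1-/- injured, 151 in Silc1-/- sham, 127 in wild-type injured and 77 in wild-type sham ganglia. Of these 26, 2 (7.69%, background 5.39%) were at least 2-fold higher and 2 (7.69%, background 3.53%) lower in wild-type injured over sham, and 0 were either (background 4.74% and 4.91%) in Silc1-/- injured over sham. In Silc1-/- sham over wild-type sham 5 (19.2%, background 6.81%) were higher and 0 (background 5.6%) lower, and in Silc1-/- injured over wild-type injured ganglia 3 (11.5%, background 4.84%) were higher and 1 (3.85%, background 5.51%) lower. The median length of these 26 genes was 102 kb. Among all protein-coding genes longer than 100 kb, 17.0% were higher and 3.21% lower in Silc1-/- sham over wild-type sham. Between the injured lists these shares were 6.92% and 5.93%. The 45 intracellular effectors, which carry the signal from the receptors to the cytoskeleton, held 259 summits in Silc1-/- injured, 370 in Silc1-/- sham, 339 in wild-type injured and 195 in wild-type sham ganglia. Of these 45, 3 (6.67%, background 5.39%) were higher and 1 (2.22%, background 3.53%) lower in wild-type injured over sham, and 1 (2.22%, background 4.74%) higher and 3 (6.67%, background 4.91%) lower in Silc1-/- injured over sham. In Silc1-/- sham over wild-type sham 3 (6.67%, background 6.81%) were higher and 2 (4.44%, background 5.6%) lower, and in Silc1-/- injured over wild-type injured ganglia 1 (2.22%, background 4.84%) was higher and 3 (6.67%, background 5.51%) lower. An end site in all 4 lists was found for 29 of the 45 effectors (64.4%), against 18 of the 69 ligands and receptors and 40.8% of all protein-coding genes.

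Markers of cells in the ganglion were counted in the same windows. The 10 sensory neuron markers had 32 summits in Silc1-/- injured, 60 in Silc1-/- sham, 34 in wild-type injured and 26 in wild-type sham ganglia. The 9 Schwann cell and satellite glia markers had 35 in Silc1-/- injured, 54 in Silc1-/- sham, 48 in wild-type injured and 29 in wild-type sham ganglia. The 7 macrophage markers had 29 in Silc1-/- injured, 28 in Silc1-/- sham, 47 in wild-type injured and 23 in wild-type sham ganglia. The 4 neutrophil markers had 7 in Silc1-/- injured, 13 in Silc1-/- sham, 20 in wild-type injured and 4 in wild-type sham ganglia. The 5 endothelial markers had 17 in Silc1-/- injured, 24 in Silc1-/- sham, 20 in wild-type injured and 11 in wild-type sham ganglia. The 4 fibroblast markers had 7 in Silc1-/- injured, 9 in Silc1-/- sham, 10 in wild-type injured and 4 in wild-type sham ganglia. The 4 skeletal muscle markers had 12 in Silc1-/- injured, 9 in Silc1-/- sham, 13 in wild-type injured and 9 in wild-type sham ganglia. Scaled to list length, the log2 ratio for wild-type injured over sham was -0.30 (-1.08 to 0.50) for the neuron, 0.04 (-0.65 to 0.76) for the glial, 0.35 (-0.40 to 1.13) for the macrophage, 1.64 (0.06 to 3.65) for the neutrophil and 0.18 (-0.95 to 1.39) for the endothelial markers. For Silc1-/- sham over wild-type sham it was 0.38 (-0.31 to 1.10) for the neuron, 0.07 (-0.61 to 0.78) for the glial, -0.54 (-1.39 to 0.32) for the macrophage, 0.88 (-0.82 to 2.95) for the neutrophil and 0.30 (-0.78 to 1.48) for the endothelial markers. Of these 10 intervals, that of the neutrophil markers after injury in wild type excludes 0, and the intervals of the fibroblast and muscle markers include 0 in both comparisons. The neutrophil markers S100a8 and S100a9 lie near each other on chromosome 3 and share summits. In wild-type injured ganglia S100a8 had 10 and S100a9 had 9, so the 4 neutrophil markers are not separate observations. The part of cell makeup in the guidance gene counts was not tested.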

How the data were processed

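ATAC-seq of mouse dorsal root ganglia gave 12 libraries, 3 in each of 4 groups, taken from the genotype and treatment in the sample titles. The files used are 4 lists of peak summits, 1 per group. The tools named are Bowtie2 and MACS2, with mm10 as the build, per the submitters' processing notes. Tool versions, read filters, any shift for the transposase and any pooling of libraries are not given in the sources. The deposited score of each summit is on a −log10 scale of a p or q value, with no statement of which, as the authors' caller wrote it. No deposited file used here holds read counts, so depth is unknown.

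Summits were counted within 50 kb of each RefSeq gene of GRCm38.p6, and divided by list length relative to the mean length. Log2 ratios per gene had 1 added to both scaled counts, so ratios are understated at low counts, and differences of at least 2-fold were counted. Summed counts were compared by ratio with exact binomial 95% intervals, which treat summits as independent. Summits within 200 bp were joined to sites. Where a list had 0, ratios used 3 summits in its place and were given without an interval. Strand is given for 59 members only, so both gene ends were used. Symbols of the form Unc5 plus 1 letter were taken, which leaves out Unc5cl.

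Genes named in the text were those with most or fewest summits per family, with the highest or lowest ratio per comparison, and with the highest-scoring sites per class; others, such as the Slits and Robos as a family, were chosen after their values were seen. The members and lists were chosen with earlier results of these data known. With 1 list per group no test, p-value or leave-one-out was possible. Alternatives were score limits of 5 and 10, equal list lengths, windows of 10 and 100 kb and the gene body alone, autosomes only, a pseudocount of 0.5, joining at 50, 500 and 1000 bp, and gene ends at 500 and 2500 bp. The same alternatives per family, and leaving out Robo2, were added after seeing the data. Analyses used Python 3.11.15, numpy 2.4.6, pandas 2.3.3 and scipy 1.17.1, and the counting steps were tested on simulated data.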

Additional observations from a re-analysis of the deposited data

Results flagged for a closer look

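Slit1 is given here because its injured-over-sham ratio was at least 2-fold in opposite directions in the genotypes. With 1 summit added to each scaled count, its log2 ratio was -1.23 in Silc1-/- and 2.85 in wild type. The counts behind these were 2 in Silc1-/- injured and 8 in Silc1-/- sham, and 7 in wild-type injured and 0 in wild-type sham ganglia. The difference was not tested, since each group has 1 list, and the wild-type ratio depends on the pseudocount because its sham list holds 0. At scores of at least 5 the ratio was 0.80 in Silc1-/- and 0.86 in wild type, the same direction. Opposite signs with a smaller ratio in wild type were also found for Robo2 (-1.12 in Silc1-/- and 0.90 in wild type) and Epha8 (-2.33 and 0.91). Opposite signs of smaller size were common among the members, whose median was -0.21 in Silc1-/- and 0.17 in wild type. With lists cut to equal length Robo2 was -0.36 in Silc1-/- and -0.32 in wild type, the same direction.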

How the results depend on the processing

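The summed log2 ratio of the 69 members moved when only gene bodies were counted, to 0.43 for wild-type injured over sham and 0.42 for Silc1-/- sham over wild-type sham, and at scores of at least 10, to -0.41 for Silc1-/- injured over sham and -0.56 for Silc1-/- injured over wild-type injured. Members at least 2-fold higher and lower in wild-type injured than sham (3 and 2) were 5 and 1 at scores of at least 5, 0 and 0 at 10, 5 and 5 within 10 kb, 10 and 5 in gene bodies, 6 higher with a pseudocount of 0.5 and 1 lower within 100 kb. For Silc1-/- injured over sham (2 and 4) they were 4 and 10 at scores of at least 5, 7 and 7 in gene bodies, and 4 within 10 kb and 1 within 100 kb higher. For Silc1-/- sham over wild-type sham (6 and 3) they were 12 and 8 in gene bodies, 0 higher at scores of at least 10 and 7 lower within 10 kb. For Silc1-/- injured over wild-type injured (3 and 4), 5 were higher within 10 kb, and 7 lower at scores of at least 10 and 7 lower with a pseudocount of 0.5. Sites in both injured lists (16) numbered 4 at scores of at least 5, 1 at 10, 5 at equal lengths and 26 joined at 50 bp. Those in both sham lists (6) numbered 2, 1, 17 at 50 bp and 3 at 1000 bp. Those in both Silc1-/- lists (25) numbered 3 at scores of at least 5, 3 at 10 and 7 at equal lengths, and those in both wild-type lists (19) 6, 9 and 12 at 1000 bp. Members with an end site at scores of at least 5 and 10 were 13 and 5 in Silc1-/- injured and 19 and 8 in wild-type sham, and at 10 were 11 in Silc1-/- sham and 15 in wild-type injured ganglia. The other 93 values of this kind stayed within 1.5 times the reported count or within the reported ratio's interval. Higher score limits reversed single genes: for injured over sham, Sema3e in wild type (0.84), and Slit1 (0.80) and Robo2 (0.029 and 0.23) in Silc1-/-; for Silc1-/- sham over wild-type sham, Ntn4 (0.92); and for Silc1-/- injured over wild-type injured, Sema5a (-0.84), Sema6d (-0.29 and -0.84) and Slit1 (0.86). Fewer summits pass these limits; the cause was not otherwise tested. No paired analysis was possible because each group has 1 list. Depth is unknown, and no list can be set beside a repeat of its own group.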
